A study of Mus musculus with 4 samples.

Results

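A list of 50 genes of mitosis and chromosome segregation, all 50 found in the RNA table of 27998 genes, was followed through single CD11b+ splenocytes of mice in steady state and after GM-CSF treatment. The members were chosen by name, as genes known to act when a cell condenses, attaches and separates its chromosomes, and the rule holds no threshold on a measured value, though the list was drawn up with earlier results of these data known. All 50 members had UMIs in both libraries, from 390 UMIs over both libraries for the lowest member to a median of 2084.5. The summed level of the members and the level of each member were compared between the deposited cell types, clusters, CD115hi subsets and cell cycle phases.

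The series held 1 library of CD11b+ splenocytes from untreated mice (steady state) and 1 from mice given 3 once-daily subcutaneous injections of 10 µg GM-CSF, a growth factor of myeloid cells, with cells taken 24 h after the last injection. The strain used for these libraries and the number of mice pooled were not given in the sources used here. Mice of the study were 8 to 12 weeks old, the cells were sorted for CD11b, an integrin of myeloid cells, and RNA was read by 3′ single-cell sequencing in a CITE-seq design. The steady-state library held 4827 cells and 22358903 UMIs (unique molecular identifiers, each counting 1 captured molecule), and the GM-CSF-treated library held 6804 cells and 35007567 UMIs. Because each condition was 1 library, the effect of GM-CSF and the library cannot be told apart, and no test between conditions was made. Levels are in CPM: the UMIs of a gene (or of all members) in all cells of a group were added up and divided by the total UMIs of the same cells, times 1000000. The exact 95% intervals in parentheses cover counting error only. Because a 3′ library counts molecules and not fragments along them, CPM was not divided by gene length.

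A cell that enters mitosis switches on the kinase Cdk1 through its cyclins, condenses its chromosomes, captures them with the kinetochore on the spindle, and waits at a checkpoint until every chromosome is attached. The anaphase-promoting complex then marks cyclin B and securin for destruction, the chromatids part, and the central spindle guides cytokinesis. Most of the genes for these steps are transcribed in G2 and mitosis, so in the spleen they mark the few cells that divide among many that do not. A smaller number, such as Hmgb2, a chromatin protein that bends DNA, and Bub3, a checkpoint protein that also acts in interphase, are transcribed in resting cells too.

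Genes of this kind are known to share promoter letters. The cell cycle homology region with the letters TTTGAA and the CCAAT box bound by NF-Y were searched on both strands from 250 bases before to 50 bases after each RefSeq start (GRCm38.p6). Of the 50 members, 42 had a promoter entry. TTTGAA stood in 33 of the 42 members (78.6%) and in 20.2% of 27025 genes, CCAAT in 33 members (78.6%) and in 41.1% of genes, and both in 29 members (69.0%) and in 7.97% of genes. The letters describe these windows and are not measured binding sites. Ube2c and Ccnb2 are shown because their transcripts were found in cells that lacked most other members, and Kif23 and Cks2 because theirs were found in granulocytes. Capitals mark TTTGAA or TTCAAA and CCAAT or ATTGG, and each sequence reads 5′ to 3′ on the strand of the gene.
Ube2c: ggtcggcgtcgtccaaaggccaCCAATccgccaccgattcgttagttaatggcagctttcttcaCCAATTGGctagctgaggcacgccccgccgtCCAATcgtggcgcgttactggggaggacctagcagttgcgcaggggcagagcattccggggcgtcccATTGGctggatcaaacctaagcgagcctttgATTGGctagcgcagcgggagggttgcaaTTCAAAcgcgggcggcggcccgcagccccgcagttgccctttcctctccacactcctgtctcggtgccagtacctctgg
Ccnb2: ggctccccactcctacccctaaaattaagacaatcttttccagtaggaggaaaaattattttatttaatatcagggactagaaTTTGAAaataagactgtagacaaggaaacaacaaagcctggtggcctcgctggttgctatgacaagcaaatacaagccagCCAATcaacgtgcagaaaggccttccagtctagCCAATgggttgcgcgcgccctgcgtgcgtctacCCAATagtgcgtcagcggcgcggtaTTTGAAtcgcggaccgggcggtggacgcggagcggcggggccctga
Kif23: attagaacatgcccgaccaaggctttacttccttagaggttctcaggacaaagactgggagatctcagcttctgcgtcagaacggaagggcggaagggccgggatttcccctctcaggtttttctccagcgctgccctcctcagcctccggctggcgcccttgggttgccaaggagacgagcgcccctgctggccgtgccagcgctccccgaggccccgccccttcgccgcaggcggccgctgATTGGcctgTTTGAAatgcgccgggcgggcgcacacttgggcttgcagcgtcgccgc
Cks2: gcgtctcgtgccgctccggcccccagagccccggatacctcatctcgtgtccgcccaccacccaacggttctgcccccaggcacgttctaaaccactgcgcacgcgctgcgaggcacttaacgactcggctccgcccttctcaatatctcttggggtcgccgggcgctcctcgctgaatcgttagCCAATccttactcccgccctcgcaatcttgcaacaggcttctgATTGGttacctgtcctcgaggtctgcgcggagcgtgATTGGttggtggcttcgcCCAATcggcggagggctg
The window of Ube2c lies at chr2:164769679-164769978 on the plus strand, that of Ccnb2 at chr9:70421505-70421804 on the minus strand, that of Kif23 at chr9:61946750-61947049 on the minus strand and that of Cks2 at chr13:51644982-51645281 on the plus strand. Kif23 held both kinds of letters, like most members, and Cks2 held CCAAT without TTTGAA.

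Over all cells the 50 members stood at 1912 CPM in the steady-state library and 4516 CPM in the GM-CSF-treated library, a ratio of 2.36 (2.34 to 2.39). The mixed cell type MoMacDC_c4, which holds monocyte, macrophage and dendritic-cell lineage cells, stood at 20641 CPM (20224 to 21066) in 43 steady-state cells and 14678 CPM (14579 to 14778) in 595 GM-CSF-treated cells. It held 0.891% of the cells and 21.7% of the member UMIs of the steady-state library, and 8.74% of the cells and 53.3% of the member UMIs of the GM-CSF-treated library. Progenitor DC (a cluster named for dendritic-cell progenitors) stood at 3930 CPM (3820 to 4042) and 9683 CPM (9572 to 9796), and Neutrophil at 5974 CPM (5830 to 6121) and 5461 CPM (5396 to 5527). Granulocyte, the cluster of mature granulocytes and the deposited name used here, stood at 2227 CPM (2179 to 2276) and 1453 CPM (1405 to 1502). The list secondary granule (later neutrophil) stood at 111370 and 97088 CPM in Neutrophil and at 1172 and 2254 CPM in Granulocyte.
The monocyte and lymphocyte types stood between 640 and 1072 CPM. MoMacDC_c1 stood at 826 and 897 CPM, MoMacDC_c2 at 745 and 640 CPM, MoMacDC_c5 at 1068 and 722 CPM, B cell at 783 and 641 CPM and T cell at 1072 and 967 CPM. The cluster deposited as cDC2-A stood at 1165 and 2296 CPM, Macrophage at 695 and 1947 CPM and Activated DC at 537 and 322 CPM, where the GM-CSF-treated library held only 20, 22 and 20 cells. The plot of summed CPM by cell type shows the same order in both libraries for MoMacDC_c4 and the granulocytic cells, and a shift of Progenitor DC from below to above Neutrophil.
The deposited names were set against cell type markers. In MoMacDC_c4 the NK cell list (Ncr1, Klrb1c, Nkg7, Gzma, Prf1) stood at 11214 CPM in steady state and at 0.349 CPM after GM-CSF. Gzma, a granzyme of cytotoxic lymphocytes, had 3797 UMIs in the 43 steady-state cells and 1 in the 595 GM-CSF-treated cells, and H2-Aa, an MHC class II chain of dendritic cells, stood at 636 and 3428 CPM. In steady state 27 of the 43 cells held at least 10 UMIs of the NK cell list, after GM-CSF 0 of 595, so the MoMacDC_c4 cells of the libraries differed in identity markers. The 27 cells stood at 25308 CPM (24706 to 25922) of the members and the other 16 at 13966 CPM (13432 to 14515). The comparisons of MoMacDC_c4, of clusters 7, 8 and 12 and of the phases are therefore given with all cells and also without cells that held at least 10 UMIs of the NK cell list, a choice made after seeing the data.
The cluster deposited as cDC2-A went against its name, with the NK cell list at 18085 and 18923 CPM and the DC markers (conventional dendritic cell and progenitor list) at 1864 and 909 CPM. Over all cells, 245 steady-state and 32 GM-CSF-treated cells held at least 10 NK cell UMIs, and without them the ratio of the summed level was 2.75 (2.72 to 2.78).

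**Figure D1:**
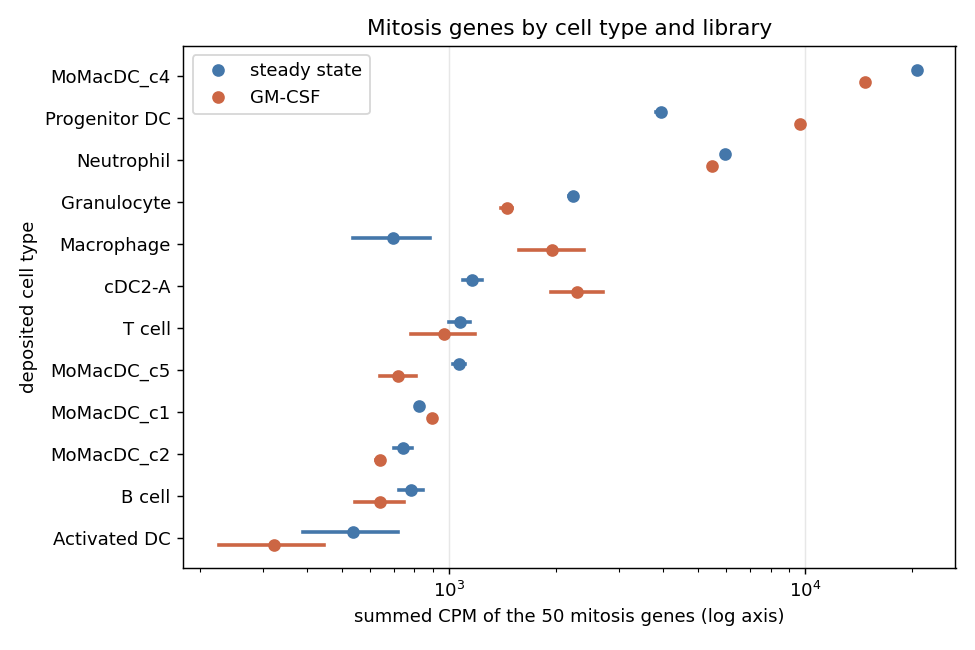
Summed CPM of the 50 mitosis genes (log axis) for each deposited cell type, steady state in blue and GM-CSF in orange; lines are exact 95% intervals of the counts. MoMacDC_c4 is highest in both libraries (20641 and 14678 CPM), and Progenitor DC stands at 3930 CPM in steady state and 9683 CPM after GM-CSF.

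The level of each member was then compared between the libraries within a cell type. A gene with at least 50 UMIs over both groups was called by a fold of at least 2 in either direction (0.5 was added to both sums before the ratio was taken), and the share of all tested genes past the same fold is the background. Over all cells, 44 of 50 members were at least 2-fold higher after GM-CSF (background 7.74%) and 0 were lower (background 10.1%). The lowest were Cks2, a small partner of Cdk1, at 143.7 CPM in steady state and 128 CPM after GM-CSF (ratio 0.89), and Hmgb2 at 839 and 966 CPM (ratio 1.15). The highest were Birc5, the survivin subunit of the chromosomal passenger complex, at 21.8 and 168 CPM (ratio 7.70), and Ccnb1, cyclin B1, at 5.32 and 39.8 CPM (ratio 7.49).
The counts within single cell types were smaller. In Progenitor DC 40 of 50 members were higher (background 5.81%) and 0 lower (8.06%). Many of these had under 50 UMIs in steady state and met the minimum only through the GM-CSF-treated cells. In Neutrophil 0 of 50 were higher (background 3.62%) and 0 lower (2.48%), and in MoMacDC_c4 0 of 50 were higher (background 12.7%) and 3 lower (12%). Without the 27 steady-state MoMacDC_c4 cells with NK cell UMIs, 5 were higher (12.6% of all genes) and 0 lower (11.6%). In MoMacDC_c1, 14 of 25 members that met the minimum were higher (background 5.48%) and 1 lower (7.26%), and the other 25 members fell below it. Most of the members higher in MoMacDC_c1 met the minimum only through the GM-CSF-treated cells. In Granulocyte only 6 members met the minimum, of which 0 were higher (background 7.29%) and 0 lower (3.20%). In MoMacDC_c2, 3 of 16 were higher (6.02%) and 3 lower (6.81%).

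**Figure D2:**
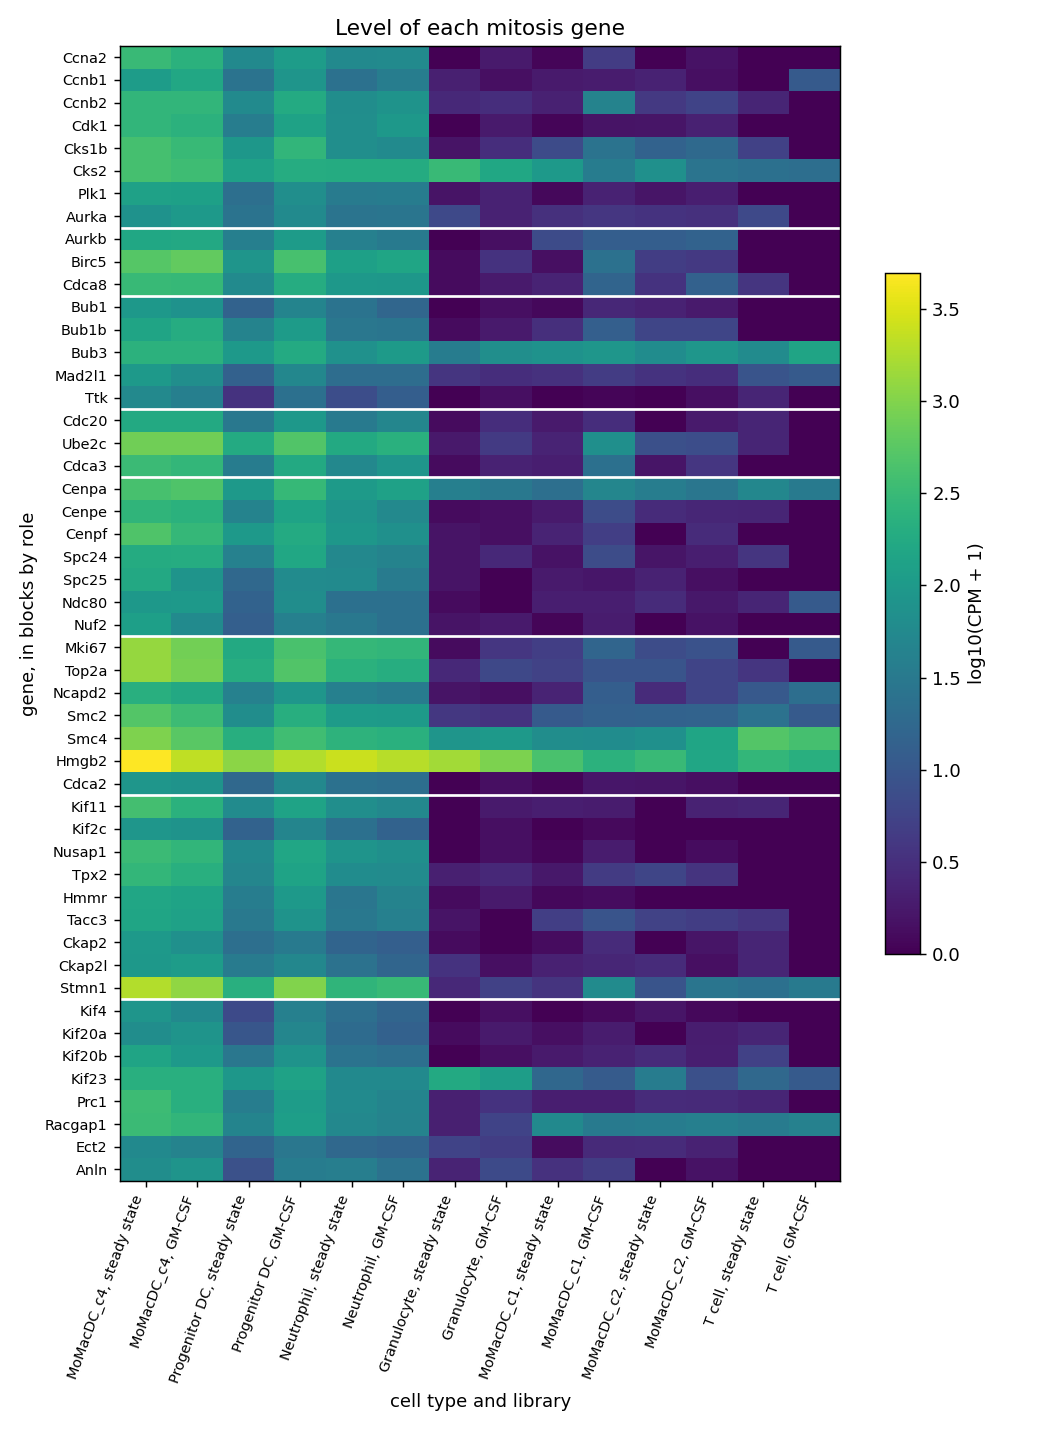
Level of each of the 50 members as log10(CPM + 1) in 7 cell types of both libraries, in blocks by role from cyclins and kinases at the top to cytokinesis at the bottom. All members are present in MoMacDC_c4, Progenitor DC and Neutrophil, while Granulocyte shows mainly Hmgb2, Cks2, Kif23, Smc4, Cenpa and Bub3.

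The summed level in Granulocyte came from few members. Hmgb2, Cks2, Kif23, Smc4, Cenpa and Bub3 made up 98.3% of its member UMIs in steady state and 95.6% after GM-CSF. Hmgb2 stood at 1544 CPM in steady state and 922 CPM after GM-CSF, and Cks2 at 316 and 161 CPM, while its close relative Cks1b, the other Cdk1 partner, stood at 0.544 and 2.07 CPM. Kif23, a kinesin of the central spindle, stood at 173 and 112 CPM in Granulocyte and at 55.9 and 54.9 CPM in Neutrophil. It was the member lower in Neutrophil than in Granulocyte in both libraries. Smc4, a condensin subunit, stood at 84.1 and 98.2 CPM in Granulocyte and at 505 and 401 CPM in T cells.
Of the rest, 11 members were at 0 UMIs in steady-state Granulocyte and 4 in GM-CSF-treated Granulocyte, and 31 and 28 members had at most 3 UMIs. Cdk1 was at 0 of 3674789 UMIs in steady state, which allows up to 0.816 CPM (3 counts), and at 0.829 CPM after GM-CSF. A sum over all members therefore mixed genes of division with genes that these cells carried without them. After seeing these values, sums were also taken over 42 members, without Hmgb2, Stmn1, Cks2, Kif23, Smc4, Cenpa, Bub3 and Racgap1. Granulocyte then stood at 34.3 and 55.9 CPM and Neutrophil at 2449 and 2386 CPM.

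Neutrophil held nearly every member, in a small share of its cells. In steady state the 10 highest members by CPM began with Hmgb2 (2554 CPM), Mki67 (291 CPM), which coats mitotic chromosomes, Stmn1 (258 CPM), which destabilizes microtubules, Smc4 (246 CPM) and Top2a (229 CPM), the topoisomerase that disentangles chromatids. After GM-CSF these stood at 2026, 267, 312, 218 and 201 CPM. Ube2c, the ubiquitin-conjugating enzyme of the anaphase-promoting complex, stood at 178 and 221 CPM, Birc5 at 124 and 149 CPM, and Cdk1 at 66.9 and 93.2 CPM. All were above the Granulocyte level of the same library.
Against Granulocyte of the same library the summed level was 2.68 times as high in the steady-state library (interval 2.60 to 2.77). After GM-CSF it was 3.76 times as high (3.63 to 3.90). Of the members, 24 of 27 past the minimum were at least 2-fold higher in steady state (background 13.6%) and 1 was lower (27.0%), and 47 of 50 were higher after GM-CSF (background 14.9%) and 1 lower (25.4%). Most of these members were near 0 in Granulocyte and met the minimum only through Neutrophil, so they had to differ. Nusap1, a microtubule-bundling protein, had 87 UMIs (79.7 CPM) in steady-state Neutrophil and 0 in Granulocyte, at least 97.7-fold higher by a floor of 3 counts in the Granulocyte sum. Kif11, the motor that pushes spindle poles apart, had 72 UMIs (66.0 CPM) and 0, at least 80.8-fold higher.

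To see how many cells carried the members, each cell was thinned to 1000 UMIs and counted as positive with at least 3 UMIs of the 48 members other than Hmgb2 and Stmn1. Positive were 20 of 146 steady-state Neutrophil cells (13.7%, 8.57 to 20.4%) and 126 of 880 GM-CSF-treated ones (14.3%, 12.1 to 16.8%), with 13 GM-CSF-treated cells left out as too shallow. They held 93.8% and 89.8% of the UMIs of these 48 members in Neutrophil. The distribution reached far above the threshold, with 12 and 55 cells at 10 or more UMIs, 8 and 71 at 3 to 9, 5 and 37 at 2, and 98 and 546 at 0. Without thinning the shares were 30.8% and 27.7%.
In Granulocyte 5.62% and 2.39% of cells were positive, with at most 7 and 6 UMIs in a cell, and in T cells 8.09% and 7.69%. By the 42 members, 0 of 1921 and 0 of 1295 Granulocyte cells were positive, with exact upper bounds of 0.192% and 0.284%, and 0 of 173 and 0 of 39 T cells. Neutrophil then held 12.3% and 13.1% positive cells. Since the 42 members were chosen after the Granulocyte values were seen, the low share in Granulocyte was partly built in. The median UMIs per cell before thinning were 6461.5 and 4404 in Neutrophil and 1770 and 1229 in Granulocyte.

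The positive Neutrophil cells differed from the other cells of the cluster in genes outside the member list. They were deeper, with a median of 14485.5 UMIs against 5989 in steady state and 10633.5 against 4087.5 after GM-CSF. The granulocyte and mature neutrophil list stood at 216761 against 283965 CPM (0.76) in steady state and at 177108 against 222376 CPM (0.80) after GM-CSF. The S phase genes, 26 genes of DNA replication, stood at 1745 against 48.7 CPM in steady state and at 1959 against 242 CPM after GM-CSF. The genes named next were further apart than the whole list and were picked after their values were seen. Retnlg, a secreted protein of mature neutrophils, stood at 78.6 against 9269 CPM and at 469.6 against 15008 CPM. Mmp9, the gelatinase of late granules, stood at 99.8 against 2515 CPM and at 199 against 2507 CPM, and the chemokine receptor Cxcr2 at 69.5 against 451 CPM and at 39.7 against 302 CPM.
The list primary granule (early neutrophil) held Mpo, Elane, Prtn3 and Ctsg, proteins of the primary granules, which form in early neutrophil precursors. It also held Ms4a3 and Cebpe, which are not granule proteins. The list stood at 6825 against 444 CPM in steady state and at 3249 against 1403 CPM after GM-CSF. One steady-state cell held 1549 of the 2257 UMIs of this list, and without that cell the sum was 2388 CPM. The medians over cells were 834 against 325 CPM in steady state and 1229 against 420 CPM after GM-CSF. Genes of the secondary granules (Ltf, Camp, Ngp, Lcn2, Cd177, Chil3) stood at 99376 against 116586 CPM in steady state, a ratio of 0.85, and at 107255 against 92871 CPM after GM-CSF, a ratio of 1.15.
Of the markers of other cells, the NK cell list stood at 169 against 7.89 CPM in steady state and at 134 against 37.8 CPM after GM-CSF. Nearly all of it was Nkg7, with 58 UMIs in all steady-state Neutrophil cells and 325 in the GM-CSF-treated ones. Gzma had 4 and 1, Ncr1 0 and 1, and Klrb1c and Prf1 0 in both. The T cell list stood at 0 against 10.5 CPM and at 8.90 against 47.0 CPM, and the erythroid list at 0 against 1.31 and at 3.42 against 1.44 CPM. The conventional dendritic cell and progenitor list stood at 75.6 against 39.4 CPM and at 86.3 against 43.0 CPM, and the stem and progenitor list at 75.6 against 23.7 CPM and at 32.2 against 18.2 CPM. Their members Flt3, Zbtb46 and Cd34 had 0 UMIs in all Neutrophil cells compared here. Kit, a member of both lists, had 13 UMIs in all steady-state Neutrophil cells and 19 in the GM-CSF-treated ones. Irf8 had 17 and 26, Itgax 12 and 48, H2-Aa 10 and 169, Batf3 1 and 6 and Cd209a 2 and 7. The part of these markers in the difference was not tested. Scrublet, which scores each cell against simulated doublets, called 1 of the 20 and 1 of the 126 positive cells.

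Between the libraries, Neutrophil differed little in these genes. The summed level was 5974 CPM in steady state and 5461 CPM after GM-CSF, a ratio of 0.914 (0.890 to 0.939), and 0.988 (0.952 to 1.03) without Hmgb2 and Stmn1. The median member ratio was 0.895 and the median of all 6489 genes tested was 0.963. The cluster held 146 cells in steady state and 893 after GM-CSF, or 3.02% and 13.1% of the cells of a library. The lowest ratios were those of Spc25, a subunit of the Ndc80 complex that binds microtubules at the kinetochore, at 58.7 and 33.2 CPM (ratio 0.57, 0.42 to 0.77), Bub1, a checkpoint kinase, at 24.7 and 15.4 CPM (0.62, 0.40 to 1.0), and Kif2c, a kinesin that shortens microtubules, at 22.0 and 13.8 CPM (0.63, 0.39 to 1.04). The highest were those of Ttk, the checkpoint kinase Mps1, at 6.41 and 11.5 CPM (1.80, 0.82 to 4.68), Cdca3, a substrate adaptor for mitotic entry, at 51.3 and 84.9 CPM (1.65, 1.25 to 2.23), and Hmmr, a spindle-associated protein, at 27.5 and 43.4 CPM (1.58, 1.07 to 2.39).

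In Progenitor DC the summed members were higher after GM-CSF in every role. The summed level went from 3930 to 9683 CPM, a ratio of 2.46 (2.39 to 2.54), and the median member ratio was 2.97 where the median of all 7286 genes tested was 0.944. By role, the chromosomal passenger complex (Aurkb, Birc5, Cdca8), which corrects wrong attachments, stood at 180.4 and 716 CPM. The spindle and microtubule members stood at 515 and 1710 CPM, the anaphase members (Cdc20, Ube2c, Cdca3) at 243 and 752 CPM, the kinetochore and centromere members at 322 and 939 CPM, and the cyclins, Cdk1 and mitotic kinases at 439 and 1097 CPM. The central spindle and cytokinesis members stood at 235 and 595 CPM, the spindle checkpoint members at 173 and 406 CPM, and the chromosome structure members, which include Hmgb2, at 1822 and 3468 CPM.
Stmn1 stood at 217 and 976 CPM, Top2a at 203 and 497 CPM, Ube2c at 179 and 487 CPM and Mki67 at 173 and 424 CPM. The highest ratios were those of Ttk with 3 UMIs (2.43 CPM) and 65 UMIs (21.8 CPM; ratio 8.98, 2.94 to 44.7), Kif4, a chromosome-bound kinesin, at 5.66 and 40.3 CPM (7.11, 3.35 to 18.1), Kif20a, a kinesin of cytokinesis, at 8.90 and 49.0 CPM (5.50, 2.99 to 11.3), Cdca3 at 34.8 and 174 CPM (4.99, 3.66 to 6.99) and Birc5 at 85.0 and 414 CPM (4.87, 3.99 to 6.01). The lowest were those of Cks2 at 129 and 193 CPM (1.49), Ckap2l, a spindle protein, at 33.2 and 49.99 CPM (1.51), Kif23 at 89.0 and 136 CPM (1.52), Ckap2, another spindle protein, at 21.0 and 32.9 CPM (1.56) and Hmgb2 at 1117 and 1838 CPM (1.64). Cks2, Kif23 and Hmgb2 were among the members present in granulocytes.
The cells of Progenitor DC were spread differently over the clusters of the MoMacDC bundle, the monocyte, macrophage and dendritic-cell part of the data that was clustered again. In steady state 19 of 152 lay in cluster 12 and 100 in cluster 9, after GM-CSF 151 of 393 and 225. Within cluster 12 Progenitor DC stood at 13244 and 16460 CPM, a ratio of 1.24 (1.20 to 1.29), and within cluster 9 at 852 and 2772 CPM, a ratio of 3.25 (2.98 to 3.55).
The share of positive cells was 21 of 151 (13.9%, 8.82 to 20.5%) in steady state and 185 of 389 (47.6%, 42.5 to 52.7%) after GM-CSF. Other genes of the pathway, chosen from fixed lists, were counted by the same rule. Of 72 other mitosis genes, 46 of the 63 past the minimum were at least 2-fold higher and 0 lower, with a summed ratio of 2.39, and of 26 S phase genes 12 of 25 were higher and 0 lower, with a ratio of 1.90. Of 17 cohesin and general chromosome genes, which resting cells also use, 1 was higher and 0 lower, with a ratio of 1.17. Over all genes tested 5.81% were higher and 8.06% lower, so the count of cohesin and general chromosome genes that were higher was near that share. Markers of dendritic cells stood at 5305 CPM in positive and 5388 CPM in other cells after GM-CSF, a ratio of 0.98 (0.95 to 1.02), and at 5531 and 6988 CPM in steady state, a ratio of 0.79 (0.75 to 0.84). In positive against other cells after GM-CSF, the NK cell list had 80 and 3 UMIs (ratio 20.5, 6.78 to 102), the secondary granule (later neutrophil) list stood at 564 and 281 CPM (2.01) and the erythroid list at 26.2 and 12.3 CPM (2.12), and the part of these markers was not tested. Without cells with at least 10 NK cell UMIs the ratio of Progenitor DC between the libraries was 2.46 as before. Of the steady-state positive cells 1 held 1744 of 1755 secondary granule UMIs.

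MoMacDC_c4 consisted almost wholly of positive cells in both libraries, 38 of 39 (97.4%) in steady state and 561 of 586 (95.7%) after GM-CSF. Its summed level was lower after GM-CSF, with a ratio of 0.711 (0.696 to 0.727), or 0.818 (0.797 to 0.840) without Hmgb2 and Stmn1, and the median of all 8106 genes tested was 0.892. Without the 27 steady-state cells with NK cell UMIs the direction turned, with a ratio of 1.05 (1.01 to 1.09), or 1.23 (1.18 to 1.30) without Hmgb2 and Stmn1, and 12 of 12 steady-state cells were positive. With all cells, the 3 of 50 members at least 2-fold lower, beside 12% of all genes, were Hmgb2 at 4976 and 2178 CPM (0.44), Nuf2 at 122 and 56.8 CPM (0.46) and Spc25 at 167 and 82.3 CPM (0.49). Nuf2 and Spc25 are subunits of the Ndc80 complex, whose other subunits were not lower. Of these, Ndc80 stood at 91.2 and 96.4 CPM and Spc24 at 187 and 195 CPM. The highest ratio was that of Ccnb1 at 109 and 165 CPM (1.52, 1.14 to 2.06), followed by Bub1b, the checkpoint protein BubR1, at 145 and 194.0 CPM (1.34, 1.04 to 1.75). Without the 27 cells, Hmgb2, Nuf2 and Spc25 were no longer past the fold, and Ccnb1, Bub1b, Ndc80, Kif4 and Kif20a were at least 2-fold higher after GM-CSF. These 5 of 50 members stood near the 12.6% of all genes that were higher. Of the 26 S phase genes 0 were at least 2-fold higher and 10 lower with all cells, where 12% of all genes were lower. Without the 27 cells 0 were higher and 8 lower, beside 11.6% of all genes.

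A different pattern stood in MoMacDC_c1 after GM-CSF, where a few members were high and most were near 0. The genes described here were picked after their values were seen. Ube2c stood at 1.37 CPM in steady state and 68.7 CPM after GM-CSF (ratio 50.3, 29.2 to 95.0), Ccnb2, cyclin B2, at 1.16 and 44.7 CPM (38.7, 21.4 to 78.1), Birc5 at 0.42 and 22.7 CPM (54.1, 20.8 to 201), Stmn1 at 2.63 and 59.5 CPM, and Cdca3 at 1.05 and 21.9 CPM. In the same GM-CSF-treated cells Cdk1 stood at 0.577 CPM, Nusap1 at 0.923 CPM, Kif11 at 0.923 CPM and Ccnb1 at 0.923 CPM. Cks2 was the member at least 2-fold lower, at 94.6 and 34.7 CPM (0.37), and Hmgb2 stood at 431 and 233 CPM (0.54). Higher and lower members nearly cancelled in the sum, which had a ratio of 1.09 (1.05 to 1.12).
To set the members side by side, each was taken as a percent of its own CPM in MoMacDC_c4 of the same library, for the 43 members without Hmgb2, Cks2, Kif23, Smc4, Cenpa, Bub3 and Racgap1. In GM-CSF-treated MoMacDC_c1 the percent ranged from 0.248 for Cdk1 to 16.7 for Ccnb2, with a median of 1.62. Ube2c reached 8.63%, Cdca3 7.86% and Cks1b 7.86%, while Nusap1 reached 0.347% and Hmmr 0.248%. In GM-CSF-treated Granulocyte the median was 0.446%, with 0.775% for Ccnb2, 0.417% for Ube2c and 0.356% for Cdk1.
Thinned to 1000 UMIs, 56 of 1341 GM-CSF-treated MoMacDC_c1 cells held a UMI of Ube2c (4.18%, 3.17 to 5.39%), 52 one of Ccnb2 (3.88%), 1 one of Cdk1 (0.0746%) and 0 one of Nusap1. Granulocyte served as the background, with 5 of 1295 cells for Ube2c (0.386%) and 0 for Ccnb2. Of the 1342 GM-CSF-treated MoMacDC_c1 cells, 142 lay in cluster 7, 104 in cluster 6, 140 in cluster 5 and 290 in cluster 2 of the MoMacDC bundle. Over all GM-CSF-treated cells of these clusters, Ube2c stood at 911 CPM in cluster 7, 199 in cluster 6, 58.5 in cluster 5, 33.2 in cluster 2 and 5.80 in cluster 1.

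**Figure D3:**
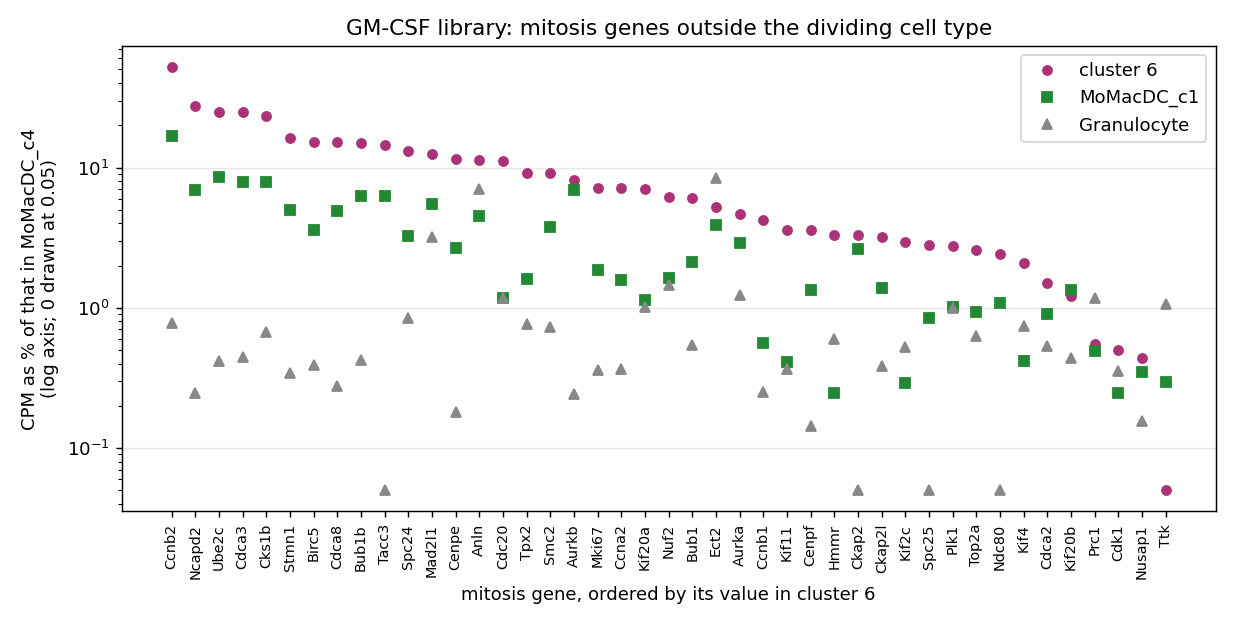
CPM of 43 members in the GM-CSF-treated library as a percent of their CPM in MoMacDC_c4 (log axis, values of 0 drawn at 0.05), ordered by the value in cluster 6. Ccnb2 reaches 52.0% in cluster 6 and 16.7% in MoMacDC_c1, while Cdk1 reaches 0.498% and 0.248%.

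Steady-state cluster 6 of the MoMacDC bundle held 297 cells, all of MoMacDC_c1, of which 98 were called S and 57 G2M by the deposited phases. Its mitosis genes were low. The summed level was 909 CPM (870 to 950), beside 779 CPM in cluster 5 and 762 CPM in cluster 2 of the same library, and 59.6% of it came from Hmgb2. Against cluster 5 the ratio was 1.17 (1.10 to 1.24), but 0.897 (0.822 to 0.979) without Hmgb2 and Stmn1, and 0 of the 8 members past the minimum were at least 2-fold higher (background 0.371%) and 1 lower (1.79%). Against cluster 2 the ratio was 1.19 (1.12 to 1.28), with 1 of 6 members higher (2.43%) and 0 lower (3.61%). Of 297 cells 2 were positive (0.673%), and 0 by the 42 members, whose sum stood at 60.0 CPM.
The phase labels separated its cells little in these genes. The summed level was 872 CPM in cells called G1, 833 CPM in S and 1147 CPM in G2M, and G2M over G1 was 1.32 (1.17 to 1.47), with 0 of 5 members at least 2-fold higher (background 0.193%) or lower (0.675%). Hmgb2 stood at 523 CPM in G1 and 670 CPM in G2M, and Cdk1, Nusap1 and Ube2c each had 0 UMIs in both. When the phases were scored again without the members, 260 of the 297 cells were called G1, 21 S and 16 G2M. The new score used 18 G2/M genes and differed from the deposited one beyond the members. Of the 271 steady-state bundle cells it called G2M, 67 had that deposited phase.

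GM-CSF-treated cluster 6, with 108 cells, stood apart from this. It reached 2149 CPM (2052 to 2249), a ratio to steady state of 2.36 (2.22 to 2.52), or 3.84 (3.51 to 4.21) without Hmgb2 and Stmn1 and 17.3 (14.4 to 21.0) over the 42 members, and 21 of 108 cells (19.4%, 12.5 to 28.2%) were positive. Of the 13 members past the minimum 8 were higher (background 3.48%) and 0 lower (8.64%), while the others had too few UMIs. Ube2c had 1 UMI in steady state and 172 after GM-CSF (0.455 and 199 CPM, ratio 438, 77.6 to 17397), and Hmgb2 stood at 542 and 547 CPM (1.01). Most of the members that were higher met the minimum only through the GM-CSF-treated cells. Against GM-CSF-treated cluster 5 it was 2.89 times as high (2.65 to 3.15), with 9 of 13 members higher (1.33%) and 0 lower (2.53%). Members such as Ccnb2 (26 UMIs in cluster 5 and 120 in cluster 6) and Birc5 (13 and 84) met the minimum only through cluster 6.
As a percent of MoMacDC_c4, Ccnb2 reached 52.0%, Ncapd2, a condensin subunit, 27.6%, Ube2c 25.03% and Cdca3 24.9%, while Prc1, which bundles the central spindle, reached 0.548%, Cdk1 0.498%, Nusap1 0.435% and Ttk had 0 UMIs. The median of the 43 members was 6.11%, against 0.148% in steady-state cluster 6, or 0.210% with the reference taken without its cells with NK cell UMIs. In the thinned cells, 20 of 108 held a UMI of Ccnb2 (18.5%) and 0 held one of Cdk1 or Nusap1. GM-CSF-treated cluster 9, mainly Progenitor DC (225 of 236 cells), had a median of 10.2%, with Ccnb2 at 43.5%, Nusap1 at 0.758%, Prc1 at 0.954% and Spc25 at 0. Ttk was at 6.89% (4 UMIs) in cluster 9 and 0 in cluster 6, and Kif4 at 15.7% and 2.08%, with intervals that overlapped.

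The members were concentrated in clusters 7, 8 and 12 of the bundle. These held 79 steady-state and 874 GM-CSF-treated cells, with 29.5% and 69.6% of all member UMIs of the library, at 15033 and 13311 CPM. The bundle outside them stood at 913 CPM in steady state and 907 CPM after GM-CSF. Members shifted there in both directions, here with examples picked after their values were seen. Hmgb2 stood at 444 and 244 CPM and Cks2 at 106 and 34.2 CPM, while Stmn1 stood at 5.67 and 52.5 CPM and Ube2c at 8.29 and 32.4 CPM. With all cells, cluster 7 stood at 11128 and 11097 CPM (ratio 0.997, with 1 member of 50 higher against 5.86% of all genes and 1 lower against 7.83%), cluster 8 at 19931 and 13864 CPM (0.696, 0 higher against 12.5% and 2 lower against 11%) and cluster 12 at 12739 and 16488 CPM (1.29, 9 higher against 4.99% and 0 lower against 5.63%). Cluster 9 stood at 895 and 2616 CPM (2.92, 12 of 19 higher against 4.0% and 0 lower against 7.71%). In cluster 9 members such as Ccnb2 (10 and 173 UMIs) and Birc5 (8 and 177) met the minimum only through the GM-CSF-treated cells.
The steady-state clusters 7 and 8 held the cells with NK cell markers, 5 of 31 and 22 of 28 cells with at least 10 UMIs of the NK cell list, and the GM-CSF-treated ones held none. Without them clusters 7, 8 and 12 together stood at 10294 CPM in 52 steady-state cells with 17.1% of the member UMIs left in the library, and at 13316 CPM in 873 GM-CSF-treated cells, a ratio of 1.29 (1.26 to 1.33). Those 5 cells of cluster 7 stood at 37030 CPM and held 2049 of its 2949 member UMIs, and the other 26 stood at 4293 CPM (4017 to 4582). Without such cells the ratio of cluster 7 was 2.59 (2.42 to 2.77), with 42 of 50 members at least 2-fold higher after GM-CSF (8.74% of all genes) and 0 lower (8.09%). The 26 steady-state cells held 900 UMIs of all members together, so most members met the minimum only through the GM-CSF-treated cells. Cluster 8 then stood at 15879 CPM (15167 to 16617) in 6 steady-state cells and had a ratio of 0.873 (0.834 to 0.915). The 3 members higher were Bub1, Kif4 and Kif20a (12.4% of all genes), and the 1 lower was Hmgb2 (12.2%).
Positive were 36.7% and 65.1% of the cells of cluster 7, 96.4% and 94.9% of cluster 8, 80.0% and 93.4% of cluster 12 and 2.46% and 17.5% of cluster 9. Cluster 8 was MoMacDC_c4 in 351 of 352 GM-CSF-treated cells, cluster 7 was split between MoMacDC_c4 (222 cells) and MoMacDC_c1 (142 cells), and cluster 12 was Progenitor DC in 151 of 152. Without cells with NK cell UMIs 6 of 25 steady-state cells of cluster 7 were positive (24%, 9.36 to 45.1%) and 6 of 6 of cluster 8. Since the clusters were made from the expression of these cells, these values describe them and are not tests. Scrublet called between 54.1% and 97.0% of the cells of clusters 11 and 15 in either library, and 0 to 7.10% in clusters 7, 8 and 12.

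**Figure D4:**
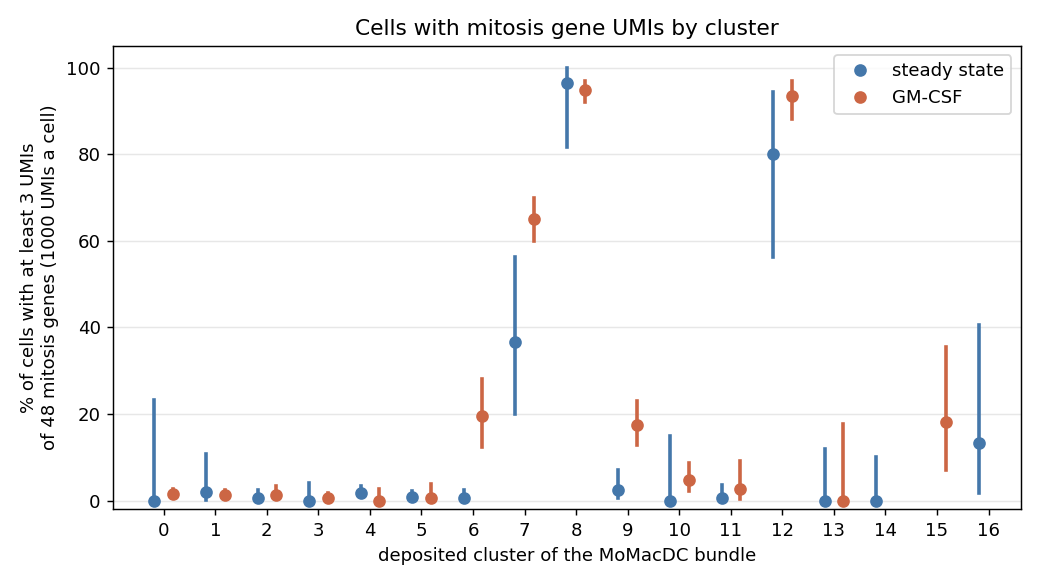
Percent of cells with at least 3 UMIs of 48 mitosis genes after thinning to 1000 UMIs a cell, by deposited cluster of the MoMacDC bundle; lines are exact 95% intervals and clusters with under 10 cells are left out. Clusters 7, 8 and 12 hold most positive cells, and clusters 6 and 9 stand at 0.673% and 2.46% in steady state and at 19.4% and 17.5% after GM-CSF.

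Clusters 7 and 8 differed in which members were high. In the GM-CSF-treated library cluster 8 was 1.25 times as high as cluster 7 (1.23 to 1.27). Higher in cluster 8 by at least 2-fold were 7 of 50 members (background 4.78%), namely Spc25 at 97.8 against 34.3 CPM (2.85), Spc24 at 236 against 85.5 CPM (2.76), Stmn1 at 1463 against 557 CPM (2.63), Top2a at 989 against 404 CPM (2.45), Aurkb at 191.0 against 90.7 CPM (2.11), Ndc80 at 107 against 51.8 CPM (2.06) and Smc2 (2.05). Spc24, Spc25 and Ndc80 are parts of 1 complex, and Aurkb is the kinase that controls its grip on microtubules.
Lower was 1 member (background 1.14%), Cdc20, which activates the anaphase-promoting complex, at 99.5 CPM in cluster 8 and 205 CPM in cluster 7 (0.48). Next to the threshold stood Ccnb2 at 175 and 348 CPM (0.50), Ccnb1 at 103 and 181 CPM (0.57), Cenpa, the histone of the centromere, at 313 and 547 CPM (0.57) and Ube2c at 539 and 911 CPM (0.59). All 26 S phase genes were at least 2-fold higher in cluster 8. Cluster 12 differed from cluster 8 in 0 of 50 members in either direction (background 4.05 and 7.36%), and it was above cluster 9 in 50 of 50 (7.22%), with 0 lower (1.47%). Some of these members met the minimum only through cluster 12, such as Cdk1 with 6 UMIs in cluster 9 and 397 in cluster 12.

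The CD115hi subsets were gated by the authors on antibody tags and not on RNA. P-I is Ly6C+, P-II Ly6C- and MHC II-, P-III Ly6C-, MHC II+ and CD301b-, and P-IV Ly6C-, MHC II+ and CD301b+. Among the GM-CSF-treated cells, P-I stood at 4663 CPM (4550 to 4778) in 187 cells, P-III at 2457 CPM (2345 to 2572) in 126 cells, P-IV at 3534 CPM (3457 to 3612) in 313 cells and P-II at 612 CPM (356 to 979) in 8 cells. In steady state P-I stood at 886 CPM (831 to 944) in 139 cells, P-II at 1366 CPM in 8, P-III at 861 CPM in 12 and P-IV at 793 CPM in 7.
Positive were 23.5% of GM-CSF-treated P-I cells, 8.06% of P-III and 19.0% of P-IV, against 2.17% of steady-state P-I. P-I was 5.26 times as high after GM-CSF (4.92 to 5.64), 9.0 times without Hmgb2 and Stmn1 and 29.0 times over the 42 members. By the fold rule, 30 of 33 members were higher (background 4.99%) and 0 lower (7.12%), while 17 fell below the minimum. Ube2c had 0 UMIs in steady-state P-I and 391 after GM-CSF, at least 102-fold higher by the floor of 3 counts, and most of these members met the minimum only after GM-CSF.
P-III stood at 0.527 of P-I (0.50 to 0.555), with 19 of 37 members at least 2-fold lower (background 2.71%) and 0 higher (1.11%). Cenpe, the kinetochore motor, stood at 64.5 CPM in P-I and 14.9 CPM in P-III (0.23), Cdc20 at 52.3 and 13.5 CPM (0.26) and Ccnb2 at 112 and 36.5 CPM (0.33). These members, like others of the 19, had under 50 UMIs in P-III and met the minimum only through P-I. P-IV was 1.44 times as high as P-III (1.37 to 1.51), with 0 of 38 members higher (1.91%) or lower (1.01%), and 0.758 of P-I (0.733 to 0.783), with 8 of 48 lower (3.53%) and 0 higher (3.63%). Stmn1 went the other way, at 318 CPM in P-I and 439 CPM in P-IV (1.38, 1.23 to 1.55).

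The subsets stood in the same order by the share of their cells in clusters 7, 8 and 12. Since these clusters were made from the expression of the same cells, this was partly built in, and the cause was not tested. Of GM-CSF-treated P-I 52 of 187 cells lay there (27.8%), of P-III 11 of 126 (8.73%) and of P-IV 63 of 313 (20.1%), and of steady-state P-I 3 of 139 (2.16%). The P-I cells were 30 in cluster 7 and 22 in cluster 8, and the P-IV cells 15 and 47. Inside these clusters P-I stood at 12000 CPM, P-III at 13005 CPM and P-IV at 11298 CPM.
Outside them GM-CSF-treated P-I stood at 690 CPM, P-III at 499 CPM and P-IV at 637 CPM, all below steady-state P-I at 809 CPM. The ratio of P-I after GM-CSF to steady state was there 0.853 (0.768 to 0.946), with 0 of 5 members higher (background 3.17%) and 1 lower (7.74%). Without Hmgb2 and Stmn1 it was 1.33 (1.16 to 1.53). Scrublet called 8.02% of GM-CSF-treated P-I cells, 1.59% of P-III and 1.92% of P-IV, and without called cells P-III stood at 0.427 of P-I.

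The deposited phases were scored by the authors from gene lists that hold 36 of the 50 members, so a high level in G2M was partly built in. In the bundle the summed level was 830 CPM in G1, 1487 in S and 11590 in G2M in steady state, and 661, 3301 and 15063 CPM after GM-CSF. G2M over G1 was 14.0 (13.6 to 14.3) with 46 of 46 members higher (background 7.19%) and 22.8 (22.3 to 23.3) with 50 of 50 (6.81%). Many of these members met the minimum only through G2M, such as Nusap1 with 0 UMIs in steady-state G1 and 204 in G2M, so they had to differ. The 14 members in neither phase list (Ccna2, Ccnb1, Plk1, Bub1b, Bub3, Mad2l1, Kif4, Kif20a, Spc24, Spc25, Smc2, Prc1, Racgap1, Stmn1) gave 16.2 (15.2 to 17.3) and 19.0 (18.3 to 19.8), so members that the score did not use stood in the same order. With the phases scored again without the members, from 18 G2/M genes, G2M over G1 was 7.62 in steady state and 17.8 after GM-CSF. Of the cells then called G2M, 67 of 271 in steady state and 563 of 758 after GM-CSF had that deposited phase, so the sets of cells also differed.
Of the 135 steady-state cells called G2M, 19 held at least 10 UMIs of the NK cell list, and these had 5947 of the 12315 member UMIs. Without such cells the steady-state levels were 1216 CPM in S and 7440 CPM in G2M, G2M over G1 was 8.96 (8.68 to 9.25), and 9.43 (8.74 to 10.2) for the 14 members. After GM-CSF 0 of 757 cells called G2M held such UMIs.
S over G1 was 1.79 (1.72 to 1.86) with 10 of 17 members higher (1.37%) in steady state and 5.0 (4.87 to 5.12) with 42 of 47 (4.15%) after GM-CSF. Members such as Cdk1, with 14 UMIs in G1 and 205 in S after GM-CSF, met the minimum only through S. Without cells with NK cell UMIs S over G1 was 1.47 (1.41 to 1.53) in steady state. Outside clusters 7, 8 and 12 this difference was small, at 1.02 (0.969 to 1.07) and 1.32 (1.26 to 1.38). There 6 of 352 steady-state S cells (1.70%) and 6 of 457 GM-CSF-treated ones (1.31%) were positive, beside 12 of 1599 (0.750%) and 31 of 2442 (1.27%) G1 cells. In the bundle as a whole 5.84% and 18.3% of S cells were positive.
For G2M the libraries stood apart outside these clusters. There G2M over G1 was 3.17 (3.01 to 3.35) in the steady-state library and 11 (10.6 to 11.4) in the GM-CSF-treated one, and 6 of 92 (6.52%, 2.43 to 13.7%) and 67 of 106 (63.2%, 53.3 to 72.4%) G2M cells were positive. A cell called G2M outside clusters 7, 8 and 12 thus rarely carried 3 UMIs of mitosis genes at this depth in steady state.

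**Figure D5:**
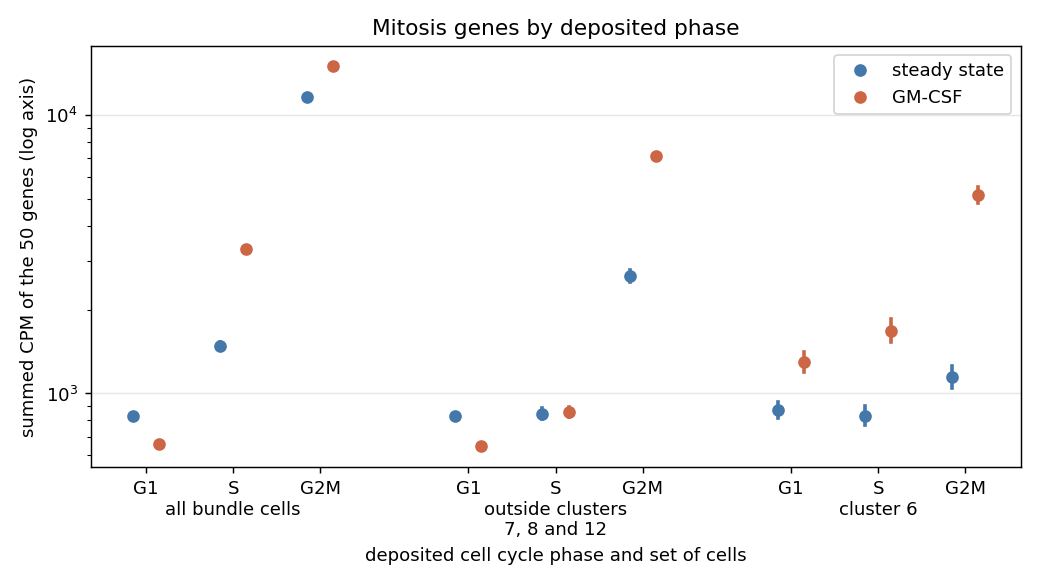
Summed CPM of the 50 members (log axis) by deposited phase in all cells of the MoMacDC bundle, outside clusters 7, 8 and 12, and in cluster 6; lines are exact 95% intervals. In steady-state cluster 6 the phases span 833 to 1147 CPM, while in the whole bundle G2M stands at 11590 and 15063 CPM.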

How the data were processed

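CD11b+ splenocytes were sorted and read by 3′ single-cell RNA sequencing with antibody tags. Per the labels and the methods of the study, the authors counted UMIs with Cell Ranger 3.0.2 on mm10, filtered cells on genes (200 to 5000) and mitochondrial UMIs (at most 15%), clustered the integrated libraries in Seurat 3.6.0, and deposited raw counts with a cell type, cluster, CD115hi subset and phase for each cell. The deposited percent of mitochondrial UMIs was checked against the mitochondrial genes and differed by at most 4.97e-14 percentage points. The phases follow from S and G2/M scores that the authors made from 38 and 51 genes. The tags were not used here.

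Counts were summed over cells to CPM, with exact Poisson intervals, exact ratio intervals from the binomial share, and Clopper-Pearson intervals for shares. Doublets were called with Scrublet in scanpy 1.11.5 (141 and 186 cells) and left out only in alternatives. 8 cell barcodes occurred in both libraries. Positive cells were counted after thinning to 1000 UMIs (seed 11). The members and lists were chosen with earlier results of these data known. Named are members by role, in full the highest by CPM and those with the highest and lowest ratios, and the markers that check a cell type. The alternatives covered doublets, depth, members, scaling, minimum, fold, phases and, after seeing the data, cells with at least 10 UMIs of the NK cell list. The T cell list had 3 of its 5 genes in the table. Promoters came from RefSeq. Python 3.11.15, scipy 1.17.1, numpy 2.4.6 and pandas 2.3.3 were used.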

Additional observations from a re-analysis of the deposited data

Results flagged for a closer look

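The direction of the summed ratio of GM-CSF-treated over steady-state cells was not the same in every cell type. The ratio was above 1 in MoMacDC_c1 (1.09), Progenitor DC (2.46), the cluster deposited as cDC2-A (1.97) and Macrophage (2.80). It was below 1 in Granulocyte (0.652), Neutrophil (0.914), MoMacDC_c2 (0.859), MoMacDC_c4 (0.711), MoMacDC_c5 (0.675), B cell (0.819) and Activated DC (0.600). In MoMacDC_c4 it was 1.05 without the steady-state cells that held NK cell UMIs. With the members in neither phase list it was 1.84 (1.496 to 2.26) in Granulocyte, 1.35 in MoMacDC_c2, 1.11 in MoMacDC_c5, 1.22 in B cell and 1.03 in Neutrophil, so the direction in these types depended on the members counted. T cell, at 0.903, had an interval that held 1 (0.721 to 1.12). With 1 library in each condition the difference between cell types was not tested.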

How the results depend on the processing

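No paired analysis was possible because each condition was 1 library and the libraries share no replicate pairing. Leaving out a replicate was not possible for the same reason. The limits are counting error, the library, depth per cell and the phase lists, which hold many members.

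Among the ratios below, direction changed as follows. MoMacDC_c4 after GM-CSF over steady state, 0.711, became 1.05 without cells with 10 or more UMIs of the NK cell list (a choice made after seeing the data). Then 5 of 50 members were higher, near the 12.6% of all genes. Neutrophil after GM-CSF over steady state, 0.914, became 1.03 with the members in neither phase list, and steady-state cluster 6 over cluster 5, 1.17, became 0.897 without Hmgb2 and Stmn1 and 0.831 with the members in neither phase list. Of the other cell types, Granulocyte, 0.652, was 1.84 with the members in neither phase list, MoMacDC_c2, 0.859, was 1.10 without Hmgb2 and Stmn1 and 1.35 with the members in neither list, MoMacDC_c5, 0.675, was 1.11 in the latter, and B cell, 0.819, was 1.06 and 1.22. The others below moved in size. In the order thinned cells, mean over cells, without Hmgb2 and Stmn1, and 42 members (chosen after seeing the data), the ratio of Neutrophil was 0.843, 0.877, 0.988 and 0.974, of MoMacDC_c4 0.733, 0.670, 0.818 and 0.816, of Progenitor DC 2.84, 2.88, 2.65 and 2.90, and of Neutrophil over Granulocyte 1.77, 1.73, 4.64 and 71.4 in steady state and 2.29, 2.25, 5.93 and 42.7 after GM-CSF. With the members in neither phase list it was 0.758 in MoMacDC_c4, 3.34 in Progenitor DC, and 18.1 and 10.2 for Neutrophil over Granulocyte. With median-of-ratios scaling these were 0.959 (Neutrophil), 0.882 (MoMacDC_c4), 2.79 (Progenitor DC), 3.12 and 5.62, and without called doublets MoMacDC_c4 was at 0.727. Without cells with NK cell UMIs Neutrophil over Granulocyte was 2.54 and 3.62, and 1 member of 50, Ttk, was higher in Neutrophil after GM-CSF, beside 3.7% of all genes. This left out 1 steady-state and 12 GM-CSF-treated Neutrophil cells, and nearly all UMIs of that list in Neutrophil were of Nkg7.

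Cluster 6 after GM-CSF over steady state was 2.20 thinned, 3.84 without Hmgb2 and Stmn1, 3.01 with the members in neither list and 17.3 with 42 members. P-I was 4.70 as a mean over cells, 9.0, 6.83 and 29.0 by the same 3 choices, and 5.85 with the other scaling. P-III over P-I was 0.427 without doublets, 0.428 thinned, 0.397 as a mean over cells, 0.631 with the members in neither list and 0.485 with 42 members, and P-IV over P-III was 1.66, 1.76, 1.82 and 1.54 by the first 4 of these.

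Members counted as higher in Granulocyte went from 0 to 28 with no minimum and 1 at a fold of 1.5, and those lower from 0 to 1 (minimum of 20 UMIs), 4 (no minimum), 3 (fold of 1.5) and 1 (other scaling, chosen after seeing the data). A fold of 1.5 gave 5 higher in Neutrophil and 1 in MoMacDC_c4. In P-I 46, 18 and 47 were higher with a minimum of 20, 100 or none. The share of all genes at these settings is not given here, so these counts describe the rule and are not read as results about the members. With no minimum, members near 0 were also called, and 31 steady-state and 28 GM-CSF-treated members had at most 3 UMIs in Granulocyte. Positive Neutrophil cells were 30.8% in steady state without thinning, and after GM-CSF 18.5% at 2 UMIs, 11.9% at 5 and 27.7% without thinning. With phases scored again without the members, from 18 G2/M genes and so on partly other cells, G2M over G1 was 7.62 in steady state and 17.8 after GM-CSF. S over G1 was then 2.68 and 6.64. The causes of these shifts were not tested beyond each choice's own construction.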
